A study of Mus musculus with 4 samples.

Results

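Macrophages are resident phagocytes of sensory ganglia, where they lie among neuronal cell bodies, satellite glia and myelinating Schwann cells. The cells described here were picked from Xenium in situ counts of vagal ganglia, the nodose and jugular ganglia that hold the sensory neurons of the airways. They were cells with at least 5 transcripts in all, at most 1 transcript summed over the neuron genes *Snap25*, *Tubb3*, *Scg2* and *Gap43*, at most 1 summed over *Car3* and *Pck1* (genes abundant in fat cells), and at least 2 summed over 10 macrophage genes. This rule kept 105 of the 9785 segmented cells, with 26, 32 and 47 of them in sections 1, 2 and 3, and they are called macrophage-rule cells below. They are compared with the 4262 other cells that met the same limits on total, neuron and fat transcripts but held 0 or 1 macrophage transcript.

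All 3 sections came from ganglia of adult C57BL/6 mice (C57BL/6J in the methods), male by the sample labels, that had received *Alternaria alternata* extract intranasally (50 μL at 25 μg/mL on days 0, 3, 6 and 9) and were studied 16 hours after the last dose. The methods name mice of both sexes for the experiments and do not give the sex for these sections. No ganglia section of PBS mice was analysed here, so no value below is a response to the allergen. The sources used here do not state whether the sections were cut from separate mice, so the spread between sections may be technical. No cell name was shared between sections.

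Macrophages are known for engulfing debris, for presenting antigen on major histocompatibility complex (MHC) class II molecules and for secreting chemokines. After exposure to the type 2 cytokines IL-4 and IL-13 they can enter an alternatively activated state, of which *Retnla*, encoding the secreted protein RELMα, is a classical marker in mice. Resident macrophages along nerves and vessels often carry the folate receptor *Folr2*, the coagulation factor XIII subunit *F13a1* and the platelet factor *Pf4*.

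The 10 genes of the rule were unequally represented, and these values describe the choice of cells and are given without a test. *F13a1* gave 11, 15 and 38 transcripts in the 3 sections and was found in 40 of the 105 cells. *Ctss*, a lysosomal cysteine protease of antigen-presenting cells, gave 17, 23 and 17 transcripts in 42 cells. *Laptm5*, a lysosomal membrane protein of leukocytes, gave 13, 21 and 15 in 38 cells. These were the most abundant of the 10, and *F13a1* was the one with most of its transcripts in section 3.

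*Mpeg1*, a pore-forming protein of macrophages, gave 9, 13 and 8 transcripts in 26 cells. *Cybb*, the catalytic subunit of the phagocyte NADPH oxidase, gave 14, 7 and 14 in 23 cells. The remaining 5 genes were sparse. The membrane protein genes *Ms4a7* and *Ms4a6c* gave 1, 3 and 6 and 2, 6 and 6 transcripts, *Folr2* gave 1, 2 and 5, *Pf4* gave 5, 2 and 2, and the scavenger receptor gene *Marco* gave 0, 0 and 4.

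**Figure D1:**
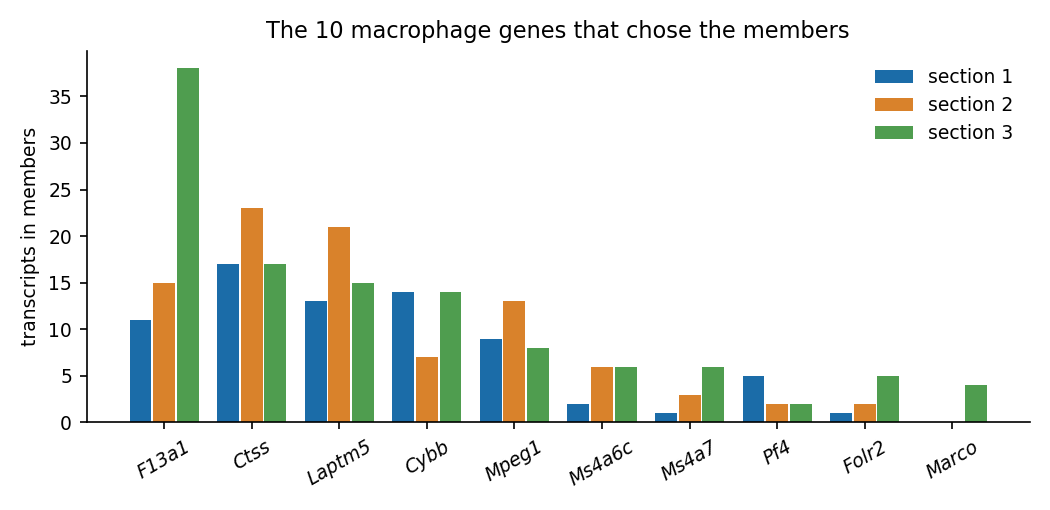
Transcripts of each of the 10 macrophage genes of the rule (vertical axis, number of transcripts) in the macrophage-rule cells of each section (bars, 1 per section). *F13a1* reached 38 transcripts in section 3 and *Marco* was found in that section alone.

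The cells were thinly sampled. A macrophage-rule cell had a median of 12 transcripts (range 5 to 46) and the other cells a median of 8. Of the 105 cells, 68 met the rule with exactly 2 macrophage transcripts, 20 held 3, 10 held 4 and 7 held at least 5, with 9 as the highest sum. Just outside the rule lay 371 cells with 1 macrophage transcript. At least 2 different macrophage genes were found in 85 cells, whereas 20 cells met the rule through 1 gene, which was *F13a1* in 12 of them.

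Of the 4 defining markers *Ctss*, *Mpeg1*, *Cybb* and *Laptm5*, all of them genes of the rule, at least 1 was present in 82 cells and none in 23, so their presence is no separate check of the label. Markers of other cells were also present, since 32 macrophage-rule cells (30.5%) held a transcript of 4 glia genes, *Prx*, *Pmp22* and *Kcna1* among them, against 61.7% of the other cells. Transcripts of an adjoining cell can be assigned to a segmented cell, and the part of this in the results was not tested. Markers of other leukocytes were scarce in both groups. Of the T and NK cell markers, *Cd3d*, *Cd3e*, *Cd8a*, *Ctla4* and *Cxcr6* were at 0 and the NK receptor gene *Klra8* had 1 transcript, while the other cells had 0.331%, 0.398% and 0.301% of their transcripts outside the rule genes in this list. Of 11 neutrophil genes 7 were at 0, *Cxcr2* and *Mpo* among them, and *Csf3r* was the most frequent with 3, and the list made up 0.375%, 0.691% and 0.501% of transcripts in the 3 sections against 0.153%, 0.247% and 0.311% in the other cells. The B cell gene *Cd79a* gave 3 transcripts, the mast cell gene *Cpa3* gave 2, and *Prg2* of eosinophils was at 0. A count of 0 in these cells allows a level of up to 0.231% of transcripts (3 counts of the total). It was also common, since 197 of all 454 panel genes outside the rule were at 0.

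Macrophage-rule cells made up 1.96% (95% Wilson interval 1.34 to 2.86), 2.80% (1.99 to 3.92) and 2.48% (1.87 to 3.28) of the cells under the neuron and fat limits, a mean of 2.41% ± 0.421 (SD, n = 3 sections). The intervals overlap and cover counting error only. The same minimum of 2 macrophage transcripts was met by 0.894% of 1789 cells with at least 2 glia transcripts (median 10 transcripts per cell), by 1.51% of 995 *Car3* or *Pck1* cells (median 20) and by 3.48% of 1781 neurons (median 67). The share in neurons, which were much deeper, was thus above that in the cells described here, while macrophage transcripts made up 0.205% of all transcripts in neurons, 0.726% in glia-marker cells and 1.44% in the cells under both limits.

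To describe what the macrophage-rule cells held apart from the genes that chose them, the 16 genes of the rule were removed and the other 454 were summed per section. The sums held 267, 434 and 599 transcripts in macrophage-rule cells and 11800, 11317 and 19634 in the other cells. Levels are percentages of these sums, and each gene is compared with itself only, because probes differ in efficiency. In macrophage-rule cells 257 of them were detected, 32 reached 10 transcripts and 115 passed the filter on low counts. With the quasi-likelihood test of edgeR (section as a block, Benjamini-Hochberg adjustment), 8 genes (6.96% of those tested) were higher and 11 (9.57%) were lower at an adjusted p under 0.05.

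The higher genes were *Retnla*, the class II genes *H2-Ab1* and *H2-Aa*, the chemokines *Ccl6* and *Ccl9*, *Plbd1*, *Tnfrsf11a* and *Alox5ap*, and each of them was higher in 3 of 3 sections. The filter asked for a minimum level in at least 3 sums, and only *H2-Aa* reached it in the other cells of all 3 sections. The rest were tested only because macrophage-rule cells were high. For them a higher level in 3 of 3 sections was largely set by the filter. The lower genes included the myelin genes *Prx* and *Pmp22* and the axonal potassium channel gene *Kcna1*. The scaling mattered: TMM placed the median log2 fold change of all tested genes at -0.49 and library size alone at -0.12, and with library size alone 14 genes were higher, the 8 among them, and 8 were lower, each of which was also lower with TMM. Without section 1 no gene passed, and 19 had an unadjusted p under 0.05 by edgeR. All 8 higher genes still had a positive and all 11 lower genes a negative fold change. Such a fit keeps only 2 sections, and whether the calls were lost through section 1 itself or through the few sums was not tested. Without section 2 there were 4 higher and 7 lower genes, and without section 3 there were 6 and 6.

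**Figure D2:**
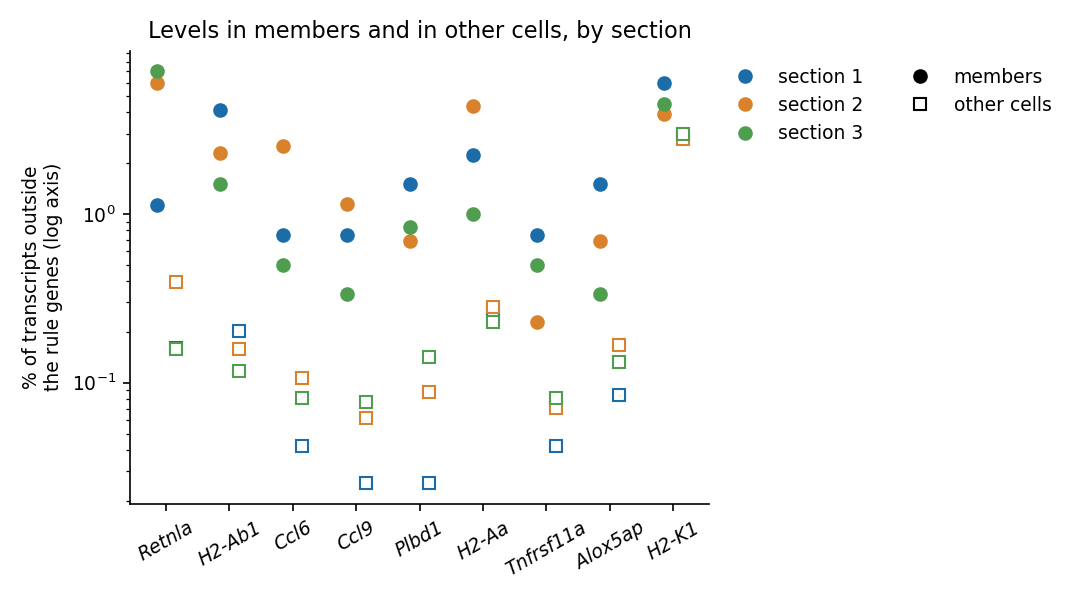
Level of the 8 higher genes and of *H2-K1*, as a percentage of the transcripts outside the rule genes (vertical log axis) in macrophage-rule cells (filled circles) and other cells (open squares), 1 point per section. For each of the 8 higher genes the 3 filled circles lie above all open squares, and for *Retnla* section 1 is the lowest circle at 1.12%. All of the 8 but *H2-Aa* passed the filter on low counts only through the macrophage-rule cells, so this separation was largely set in advance.

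*Retnla* had the largest fold change of the higher genes over the 3 sections. It gave 3, 26 and 42 transcripts in the macrophage-rule cells, or 1.12%, 5.99% and 7.01% of the sums, against 0.161%, 0.398% and 0.158% in the other cells. The 2 groups did not overlap, and section 1 was far below sections 2 and 3. The means were 4.71% ± 3.15 and 0.239% ± 0.138 (SD, n = 3 sections), the log2 fold change was 3.96 (SE 0.47) and the adjusted p by edgeR was 4.52e-13. Without section 2 the log2 fold change was 4.18 with an adjusted p of 0.0593. Without section 3 it was 2.88 (adjusted p = 0.0422), below those of *Ccl6* (3.80), *Ccl9* (3.69), *H2-Ab1* (3.38), *Plbd1* (3.36) and *H2-Aa* (2.91).

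*Retnla* was concentrated in few cells. It was found in 18 of the 105 cells, and 5 cells held 55 of its 71 transcripts. The largest number in a cell was 1 in section 1, 11 in section 2 and 14 in section 3, and section 1 had no cell with at least 5. In the whole of the ganglia sections *Retnla* gave 273 transcripts, of which 71 lay in the 105 macrophage-rule cells and 95 in the 4262 other cells. The 995 *Car3* or *Pck1* cells held 62 (0.282% of their total, against 0.218% in the other cells). In neurons it gave 24 transcripts (0.0135% of their total), with no more than 2 in a cell. The remaining cells with at least 5 *Retnla* transcripts were 1 of the other cells and 2 *Car3* or *Pck1* cells, of which the highest held 12.

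The stretch around the start of *Retnla* (chr16:48842359-48842658, plus strand, 250 bases before to 50 after the start, RefSeq on GRCm38.p6) is shown because *Retnla* is a classical target of IL-4 and STAT6. Capitals mark the only match to TTC and GAA set apart by 4 bases of any kind, the spacing that STAT6 prefers, which reads the same on both strands and starts 145 bases before the gene. Such a match was present in 6.95% of the 32851 promoters of this length.

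Retnla: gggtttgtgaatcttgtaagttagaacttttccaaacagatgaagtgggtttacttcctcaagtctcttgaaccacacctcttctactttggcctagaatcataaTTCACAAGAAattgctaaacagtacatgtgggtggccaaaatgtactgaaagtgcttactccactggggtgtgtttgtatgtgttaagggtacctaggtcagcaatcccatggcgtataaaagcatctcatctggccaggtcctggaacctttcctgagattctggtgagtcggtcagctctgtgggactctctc

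A match of letters is a description of the window and no measurement of binding. Part of the *Retnla* transcript is close to that of its family member *Retnlg*, with a longest shared run of 49 bases, and the probe sequences were not used here.

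*H2-Aa* was found in 22 cells and *H2-Ab1* in 17, the 2 class II chains that passed the test. *H2-Ab1*, the beta chain of the I-A molecule, gave 11, 10 and 9 transcripts in macrophage-rule cells (4.12%, 2.30% and 1.50%) against 0.203%, 0.159% and 0.117% in other cells. The groups did not overlap, with a log2 fold change of 3.54 (SE 0.60, edgeR adjusted p = 3.55e-07). *H2-Aa*, its alpha chain, gave 6, 19 and 6 transcripts (2.25%, 4.38% and 1.002%) against 0.254%, 0.283% and 0.229%. Section 2 was the highest for *H2-Aa*, and the log2 fold change was 2.75 (SE 0.59, edgeR adjusted p = 7.35e-05). *H2-Eb1*, the beta chain of I-E, gave 2, 1 and 1 transcripts and was too sparse to be tested.

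Without section 2 the log2 fold change of *H2-Aa* was 2.13 with an adjusted p of 0.189, and 1 cell of that section held 12 class II transcripts. *H2-K1*, a class I gene of nearly all nucleated cells, gave 16, 17 and 27 transcripts and did not pass (log2 0.33, edgeR adjusted p = 0.477), but did with library size alone (0.71, adjusted p = 0.0392). *H2-K1* shares runs of up to 91 bases with *H2-D1*. The immunoproteasome gene *Psmb8* was at 0. Over the 5 genes of antigen presentation, 2 of the 3 tested were higher and none was lower, and their median log2 fold change was 2.75 against -0.49 over all tested genes. *H2-Ab1* passed the filter only through the macrophage-rule cells, so this count and median lean towards higher genes.

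The promoters of *H2-Aa* (chr17:34287774-34288073, minus strand) and *H2-Eb1* (chr17:34305617-34305916, plus strand; both 250 bases before to 50 after the start, RefSeq on GRCm38.p6) are shown because class II genes are switched on together through a conserved promoter module that includes a CCAAT element, known as the Y box. *H2-Ab1* was named only. Capitals mark CCAAT on either strand, which appears as ATTGG where it lies on the opposite one.

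H2-Aa: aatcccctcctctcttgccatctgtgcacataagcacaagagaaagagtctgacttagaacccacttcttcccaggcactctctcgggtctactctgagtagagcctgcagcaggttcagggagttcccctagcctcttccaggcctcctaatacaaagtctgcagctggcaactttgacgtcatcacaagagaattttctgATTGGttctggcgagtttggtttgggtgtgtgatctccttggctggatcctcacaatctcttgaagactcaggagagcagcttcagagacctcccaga

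H2-Eb1: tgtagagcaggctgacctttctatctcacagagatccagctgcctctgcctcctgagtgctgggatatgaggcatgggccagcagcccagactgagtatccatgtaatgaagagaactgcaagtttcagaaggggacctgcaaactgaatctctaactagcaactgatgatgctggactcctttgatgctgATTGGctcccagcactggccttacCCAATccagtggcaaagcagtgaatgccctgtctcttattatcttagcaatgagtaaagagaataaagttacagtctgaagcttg

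*H2-Aa* held 1 match, starting 48 bases before the gene, and *H2-Eb1* held 2, starting 59 and 35 bases before it. CCAAT was present in 37.4% of promoters of this length, so the match alone is common.

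**Figure D3:**
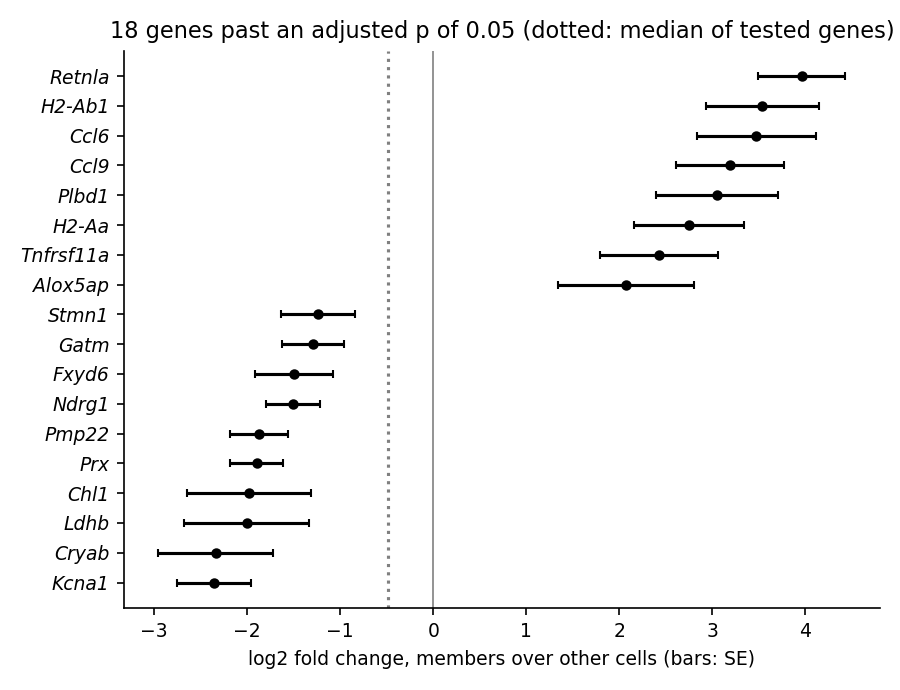
Log2 fold change of macrophage-rule cells over other cells (horizontal axis) for 18 genes with an adjusted p under 0.05 in edgeR. Points are estimates and bars their SE; the dotted line marks the median of the 115 tested genes at -0.49, and *Retnla* (3.96) and *Kcna1* (-2.36) are the extremes of those drawn.

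*Ccl6* and *Ccl9* were the only chemokine genes tested, and both were higher. They passed the filter on low counts only through the macrophage-rule cells, so this direction was largely set in advance. With no filter, edgeR called *Ccl6* (adjusted p = 0.0054) and not *Ccl9* (0.069). *Ccl6* gave 2, 11 and 3 transcripts in macrophage-rule cells (0.749%, 2.53% and 0.501%) against 0.0424%, 0.106% and 0.0815% in other cells (log2 3.48, SE 0.64, edgeR adjusted p = 2.66e-06). *Ccl9* gave 2, 5 and 2 (0.749%, 1.15% and 0.334%) against 0.0254%, 0.0619% and 0.0764% (log2 3.19, SE 0.58, adjusted p = 5.10e-05). Section 2 was the highest for both, and 1 cell held 8 of the 16 *Ccl6* transcripts. Without section 2, *Ccl6* still passed (adjusted p = 0.0473) and *Ccl9* did not (0.0888). At least 1 of the 2 was found in 13 cells. Both are CC chemokines of rodents that attract myeloid cells through the receptor Ccr1.

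The other chemokines were sparse or missing. Of the 18 genes for chemokines and their receptors on the list, 10 were at 0 in macrophage-rule cells, among them the inflammatory chemokines *Ccl3*, *Ccl4*, *Cxcl1*, *Cxcl9* and *Cxcl10* and the monocyte attractant *Ccl8*. Over all genes outside the rule, 197 of 454 were at 0. In all the other cells *Ccl3* gave 22 transcripts and *Ccl4* gave 1, so a 0 at this depth says little. The 2 tested genes had a median log2 fold change of 3.33 against -0.49 over all tested genes. These medians are not alike, since both genes entered the test only through the macrophage-rule cells.

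*Ccl6* (chr11:83593038-83593337, minus strand) and *Ccl9* (chr11:83578587-83578886, minus strand) are neighbours in a chemokine cluster, and their promoters (same window and source) are shown because the 2 genes were higher together. Capitals mark the longest run of bases that the windows share, 13 bases starting 55 bases before *Ccl6* and 14 bases before *Ccl9*.

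Ccl6: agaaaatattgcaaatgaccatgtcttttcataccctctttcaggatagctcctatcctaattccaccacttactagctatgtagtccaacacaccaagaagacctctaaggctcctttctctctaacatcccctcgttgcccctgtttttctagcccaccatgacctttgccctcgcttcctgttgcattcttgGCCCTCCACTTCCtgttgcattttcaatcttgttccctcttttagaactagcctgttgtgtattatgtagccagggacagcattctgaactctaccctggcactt

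Ccl9: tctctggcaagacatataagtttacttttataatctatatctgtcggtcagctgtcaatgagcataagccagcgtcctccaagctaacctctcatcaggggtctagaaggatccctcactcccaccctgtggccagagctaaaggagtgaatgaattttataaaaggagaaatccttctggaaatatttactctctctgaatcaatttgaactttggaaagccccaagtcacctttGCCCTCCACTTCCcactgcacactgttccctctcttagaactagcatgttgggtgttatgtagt

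This run was found by comparing the windows with each other, and 6 of the 32851 promoters (0.0183%) held it on either strand. The transcripts of the 2 genes share runs of up to 25 bases, so their probes need not be wholly distinct.

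The remaining higher genes each had at most 12 transcripts in macrophage-rule cells. *Plbd1*, a lysosomal protein of the phospholipase B family that is abundant in myeloid cells, gave 4, 3 and 5 transcripts (1.01% ± 0.430) against 0.0855% ± 0.0586 in other cells (SD, n = 3 sections), a log2 fold change of 3.05 (SE 0.65, edgeR adjusted p = 6.48e-05; 0.0752 without section 2). With no limit on *Car3* and *Pck1* in the other cells the log2 fold change of *Plbd1* was 0.92 and was not called (adjusted p = 0.427). *Alox5ap*, which presents arachidonic acid to 5-lipoxygenase for leukotriene synthesis, gave 4, 3 and 2 (0.841% ± 0.596) against 0.128% ± 0.0417 (log2 2.07, SE 0.73, edgeR adjusted p = 0.0298). It was no longer called when any 1 section was left out (adjusted p from 0.195 to 0.319). *Tnfrsf11a*, encoding RANK, the receptor for RANKL in osteoclast precursors and dendritic cells, gave 2, 1 and 3 (0.493% ± 0.259) against 0.0649% ± 0.0202 (log2 2.42, SE 0.64, edgeR adjusted p = 0.0137). The adjusted p of *Tnfrsf11a* was 0.3185 without section 1 and 0.249 without section 3. *Plbd1*, *Alox5ap* and *Tnfrsf11a* passed the filter on low counts only through the macrophage-rule cells, so their direction was largely set in advance. With no filter, edgeR called none of them (adjusted p = 0.0524, 0.621 and 0.565).

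Of the 16 myeloid genes outside the rule, 4 were tested, *Plbd1* and *Alox5ap* were higher and none was lower. Over all 115 tested genes, 6.96% were higher. The median log2 fold change was 0.93 for this list and -0.49 over all tested genes. *Plbd1* and *Alox5ap* passed the filter only through the macrophage-rule cells, so the count and median of this list lean towards higher genes. *Ncf4*, a cytosolic subunit of the NADPH oxidase, gave 1, 1 and 6 transcripts with a log2 fold change of -0.21 (adjusted p = 0.867). *Clec4f* and *Cd5l*, markers of Kupffer cells and other tissue macrophages, were at 0, but gave only 5 and 2 transcripts in all the other cells. *Lyve1*, a hyaluronan receptor of perivascular macrophages and lymphatic vessels, gave 2 transcripts in section 3. *Fibin*, *Dpt*, *Trpv1* and *Slc25a37* also passed with library size alone, with log2 fold changes of 2.24, 2.07, 1.99 and 1.93.

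The lower genes included several of myelinating glia. *Prx*, encoding periaxin of the Schwann cell membrane, gave 8, 8 and 14 transcripts (3.00%, 1.84% and 2.34%) against 6.94%, 6.83% and 6.41% in other cells (log2 -1.90, SE 0.28, edgeR adjusted p = 1.14e-08). *Pmp22*, a protein of compact myelin, gave 9, 5 and 10 (3.37%, 1.15% and 1.67%) against 5.42%, 5.28% and 5.26% (log2 -1.87, SE 0.31, adjusted p = 3.02e-07). *Kcna1* gave 2, 2 and 8 (0.848% ± 0.446) against 3.58% ± 0.103 (log2 -2.36, SE 0.40, adjusted p = 3.11e-07). In each case the 3 sections of macrophage-rule cells lay below those of the other cells.

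Of the 6 glia markers, 5 were tested. *Prx*, *Pmp22*, *Kcna1* and the small heat shock protein gene *Cryab* (log2 -2.34, edgeR adjusted p = 0.00169) were lower and 1 was not called. Over all tested genes, 11 of 115 (9.57%) were lower. The median log2 fold change was -1.90 for the glia markers and -0.49 over all tested genes. Summed over the list, glia markers made up 8.99%, 4.38% and 6.85% of transcripts in macrophage-rule cells against 18.8%, 18.8% and 18.0% in other cells. With cells that held any transcript of the 4 glia genes removed from both groups, 4 genes were higher (*Retnla*, *H2-Ab1*, *H2-Aa* and *Ccl6*) and none was lower by edgeR.

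The stress-response gene *Ndrg1*, needed in Schwann cells, *Gatm* of creatine synthesis and the sodium pump regulator gene *Fxyd6* were lower by 1.51, 1.30 and 1.50 on the log2 scale. The lactate dehydrogenase gene *Ldhb* (log2 -2.01), the adhesion gene *Chl1* (-1.98) and the microtubule regulator gene *Stmn1* (-1.24) were lower with TMM and were not called with library size alone.

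Endothelial, fibroblast and mural cell genes were not called by edgeR with TMM, which at this depth does not show that the groups were alike. None of 11 endothelial genes (6 tested), 13 fibroblast genes (11 tested) or 8 mural cell genes (5 tested) was called in either direction. Over all tested genes, 16.5% were called. The median log2 fold changes of the 3 lists were -0.40, 0.01 and -0.47, beside -0.49 over all tested genes. Fibroblast genes made up 11.2%, 6.45% and 8.85% of transcripts in macrophage-rule cells against 7.24%, 7.01% and 6.75%, so the groups overlapped. *Bgn*, a matrix proteoglycan, gave 6, 8 and 11 transcripts (log2 0.01), and *Pcolce2*, a collagen processing enhancer, was at 0 against 110 transcripts in the other cells. *Pcolce2* was called by limma, and the fibroblast gene *Dpt* was higher by edgeR with library size alone (log2 2.07, adjusted p = 0.0392). Neuron markers outside the rule made up 2.25%, 2.30% and 3.17% against 2.93%, 2.62% and 2.41%, and *Prdm12*, *Chgb* and *Ly6h* were at 0. *Chgb* gave only 2 transcripts in all the other cells, so its 0 says little. *Nnat* of the same list went the other way, with 5 transcripts in 5 of the 105 macrophage-rule cells. It was found in 25 of the 4262 other cells. The neuropeptide gene *Calca* gave 3, 1 and 6 transcripts (log2 -0.36, edgeR adjusted p = 0.779).

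Type 2 cytokine receptors were barely sampled. *Il4ra* gave 1 transcript and *Il13ra1* gave 4 in all macrophage-rule cells, and none of the 9 interleukin and receptor genes passed the filter. Of 6 interferon response genes 4 were at 0, beside 197 of all 454 genes outside the rule. *Rsad2*, an antiviral enzyme, gave 3, 5 and 1 transcripts (log2 1.08, edgeR adjusted p = 0.420). *Timp3*, a metalloproteinase inhibitor, gave 5, 10 and 13 (log2 -0.73, adjusted p = 0.138).

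The levels also followed the number of macrophage transcripts in a cell, which is given without a test. Over cells with 0, 1, 2 and at least 3 such transcripts, *Retnla* made up 0.170%, 0.725%, 3.20% and 9.22% of transcripts outside the rule genes. *H2-Ab1* made up 0.0981%, 0.675%, 0.985% and 4.51%, and *H2-Aa* 0.209%, 0.650%, 1.60% and 3.69%. Pooled over sections, *Prx* ran the other way, with 6.85%, 4.93%, 2.59% and 1.84%, as did *Pmp22* with 5.53%, 3.20%, 1.97% and 1.64%. Cells with a single macrophage transcript, which the rule left out, thus lay between the groups for these genes. Single sections did not all share these orders. *Retnla* in section 1 turned at the last step, with 1.27% at 2 and 0.909% at 3 or more. For *Prx* the last step turned in section 2 (1.57% at 2 and 2.22% at 3 or more) and in section 3 (2.24% and 2.53%). *H2-Aa* turned in section 1 (3.19% at 2 and 0.909% at 3 or more), and *H2-Ab1* in section 2 was at 0.782% at 1 and 0% at 2.

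**Figure D4:**
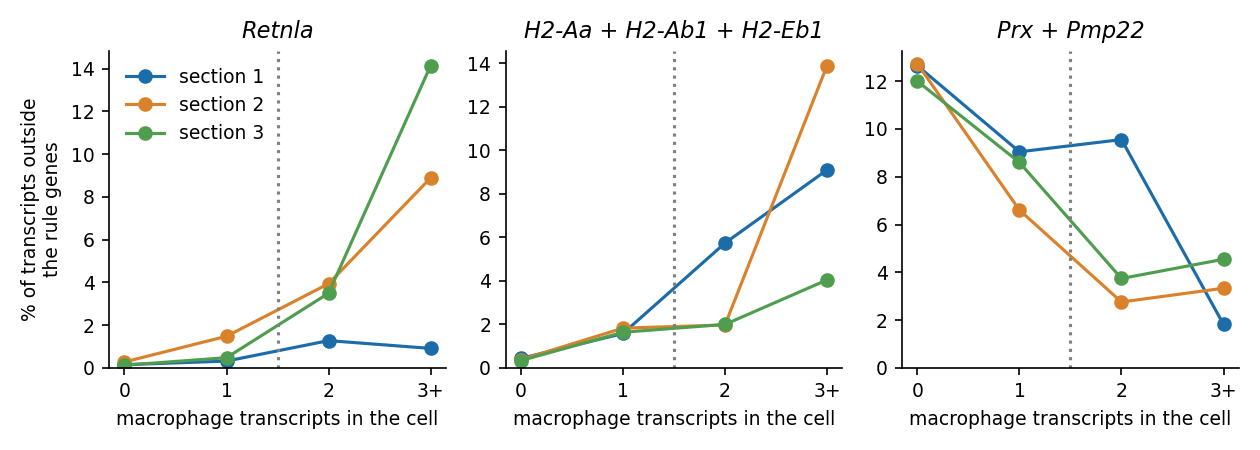
Level of *Retnla*, of the 3 class II genes and of *Prx* with *Pmp22* (vertical axes, % of transcripts outside the rule genes) in cells with 0, 1, 2 or at least 3 macrophage transcripts (horizontal axis), with 1 line per section and the rule's minimum as a dotted line. *Retnla* reached 14.1% in section 3 and 8.89% in section 2 in the last class but 0.909% in section 1.

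Class II and *Retnla* transcripts were each detected in only some of the macrophage-rule cells. Class II transcripts were found in 35 cells (10, 13 and 12 per section), *Retnla* in 18 (3, 8 and 7), both in 6 (0, 5 and 1) and neither in 58. Of the 5 cells with at least 5 *Retnla* transcripts, those with 14 and 8 held 1 class II transcript each and the others none. This stands beside 35 of all 105 cells with any class II transcript. These 5 cells are too few to show whether the 2 kinds of transcript lay in different cells. At a median of 12 transcripts a cell without a transcript of a gene may still express it, and transcripts of an adjoining cell may be counted, so the overlap is known only roughly.

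**Figure D5:**
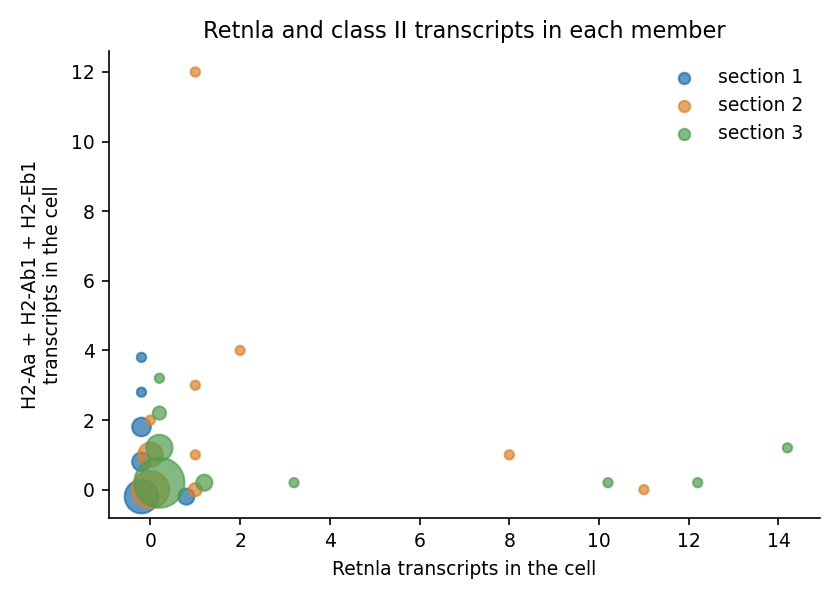
*Retnla* transcripts (horizontal axis) and summed *H2-Aa*, *H2-Ab1* and *H2-Eb1* transcripts (vertical axis) in each of the 105 macrophage-rule cells, with the area of a point proportional to the number of cells and colours for the sections, drawn slightly apart. The 5 cells with most *Retnla* held 0 or 1 class II transcript, beside 35 of all 105 cells with any. The cell with 12 class II transcripts held 1 of *Retnla*.

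Cells with at least 1 transcript of *Folr2*, *F13a1* or *Pf4* (49 cells) were set beside those with none (56 cells). Only 2 genes outside the rule passed the filter on low counts in these sums of 101, 139 and 318 and 166, 295 and 281 transcripts, so the values below are given without a test. With no filter, edgeR called 0 of 257 genes, and 1 had an unadjusted p under 0.05. *Retnla* made up 2.97%, 9.35% and 9.12% of transcripts in the first group and 0%, 4.41% and 4.63% in the second, a difference of 4.14 percentage points ± 1.04 (SD, n = 3 sections) with the first group higher in 3 of 3 sections. The counts were 3, 13 and 29 against 0, 13 and 13, so in section 2 the numbers were equal and the sums they are divided by were not. In the first group 3 cells held 35 of the 45 transcripts, and in the second 2 cells held 20 of the 26. Of the 40 cells with *F13a1*, 10 held *Retnla*, beside 18 of all 105 cells. In section 2 the order turned, with 2 of 12 cells with *F13a1* beside 8 of all 32.

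Class II genes made up 8.91%, 1.44% and 1.89% of transcripts in cells with *Folr2*, *F13a1* or *Pf4* and 6.02%, 9.49% and 3.56% in those without, so the order turned in section 1 and the difference of -2.28 points was smaller than its SD of 5.50. *Ccl6* with *Ccl9* gave 2, 3 and 3 transcripts in the first group and 2, 13 and 2 in the second. The order of the 2 groups differed between sections for these genes as well, while the 2 transcripts of *Lyve1* both fell in the first group.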

How the data were processed

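Fixed vagal ganglia on 3 sections of 5 μm were measured with Xenium in situ probes. The counts were deposited by the authors as whole numbers of transcripts for 470 genes per segmented cell, without normalization, and sections were taken from the start of the cell names. Sums per cell equalled the deposited totals. The submitters' processing notes name Seurat. Positions of cells, the authors' annotation of them and the lung sample were not analysed here.

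Cells were chosen by the rule given in the report. The genes of the rule were left out, raw counts of the other genes were summed per section and group, and the sums were tested with edgeR 4.0.16 in R 4.3.3 (quasi-likelihood, TMM, filterByExpr, section as a block since both sums share a section, Benjamini-Hochberg at 0.05). Levels are percentages of each sum, with the SD over sections. On simulated sums of these sizes TMM set unchanged genes below zero, more so than library size alone, and the test recovered few planted changes, so TMM fold changes lean downward and both scalings are given. Wilson intervals and limits for a count of 0 cover counting error only. The members and the gene lists were chosen with earlier results of these data known. The text names the 10 macrophage genes, up to 15 higher and 10 lower genes called and changed alike in every section, list members with at least 10 transcripts and markers of other cells at 0. Other named genes were chosen after their values were seen. Some genes that the rule allows are not reported here.

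Alternatives were DESeq2 1.42.0, limma 3.58.1 on log2(CPM + 1), other scalings, filters and cell limits, and each section left out. TMMwsp, cells with at least 2 different macrophage genes and cells without glia transcripts were added after seeing the data. Promoters came from a RefSeq table on GRCm38.p6, which held 6 of the 8 higher genes. No doublet caller was run. Other values were computed in Python 3.11.15 (pandas 2.3.3, scipy 1.17.1, numpy 2.4.6).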

Additional observations from a re-analysis of the deposited data

How the results depend on the processing

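The 8 higher and 11 lower genes became 14 and 8 with library size alone, 6 and 10 with DESeq2, 9 and 10 with TMMwsp, 4 and 18 with no filter on low counts (445 genes tested) and 0 and 2 with limma on log2(CPM + 1), where *Pcolce2* and *Pnmal2* were called and 17 genes had an unadjusted p under 0.05. The section as a replicate block pairs the sums of 1 section, and without it there were 9 and 11. Leaving out 1 section gave 0 to 6 higher and 0 to 7 lower genes, and the lowest adjusted p without section 1 was 0.305. With at least 3 macrophage transcripts per cell there were 5 higher and 1 lower, with 0 glia transcripts in both groups 4 and 0, and with no limit on *Car3* and *Pck1* in the other cells 8 and 20, *Plbd1* no longer among the higher genes.

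The share of 2.41% was 0.865% with at least 3 macrophage transcripts, 3.86% in cells with at least 10 transcripts, 1.46% of all cells with at least 5, 1.98% with at least 2 different macrophage genes and 2.22% to 2.64% with a section left out. The *Retnla* difference by *Folr2*, *F13a1* or *Pf4* was 17.3 points with at least 3 macrophage transcripts, 5.26 with 0 neuron transcripts and 3.73 to 4.72 with a section left out, and that of class II genes was -4.86 to 0.607.

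The fold changes of the genes called stayed on their side of 0 under every alternative that tested them. Some genes that were not called changed sign (log2, uncalled unless stated). *Bgn* was at -0.14 with DESeq2, -0.76 with no filter, -0.062, -0.074 and -0.26 without sections 1, 2 and 3, -0.75 with at least 3 macrophage transcripts, -0.28 with at least 10 transcripts per cell, -0.27 with at least 5 outside the rule genes, -0.23 with 2 different macrophage genes and -0.41 without glia transcripts. *H2-K1* was at -0.45 with no filter, -0.25 with at least 3 macrophage transcripts and -0.49 with no fat limit. *Serpinf1* was at -0.27, -0.66, -0.37 and -0.042 with no filter, at least 3 macrophage transcripts, 2 different genes and no glia transcripts, and *Aspn* at -0.75 with at least 3. *Calca* was at 0.020 with library size alone, -1.15 to 0.022 with a section left out (positive without section 2) and 0.29 with 0 neuron transcripts. *Cd36* was at -0.0081 with no filter and at -2.27 (called) with no fat limit. The causes were not tested.

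Depth limits these results, since 83 of the 115 tested genes had under 10 transcripts in macrophage-rule cells and the p-values rest on a spread that edgeR shared across genes.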

Other observations

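Some genes were unevenly spread over the sections of macrophage-rule cells, and they are named after their values were seen. *Anxa2*, a calcium-dependent phospholipid-binding protein, gave 2, 15 and 5 transcripts, or 0.749%, 3.46% and 0.835%, against 1.45%, 1.37% and 1.33% in other cells. Section 2 was thus above the other cells and sections 1 and 3 below them, and the difference was not called (log2 -0.18, edgeR adjusted p = 0.813). *Slc25a37*, encoding the mitochondrial iron importer mitoferrin, gave 3, 8 and 4 transcripts in 7 cells, 1 of which held 5.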
